A study of Rattus norvegicus with 22 samples.

Results

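Voltage-gated sodium channels, voltage-gated calcium channels and the sodium leak channel complex are described here in the ventral spinal cord of rats with and without gonads. Genes were taken by symbol from a count table of 32883 genes, and 43 of them belong to these families: 10 sodium channel pores, 4 sodium channel beta subunits, 4 L-type calcium channel pores, 3 pores of the P/Q, N and R types, 3 T-type pores, 4 alpha2delta subunits, 4 calcium channel beta subunits, 8 gamma subunits, and Nalcn with Unc79 and Unc80. All 43 were present in the table.

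RNA was sequenced from the ventral part of the mid-cervical cord, a region that holds the phrenic motor neurons of the diaphragm, with 1 library per rat. The 22 adult Sprague-Dawley rats, 3 to 4 months old, formed 4 groups: 5 intact males, 5 gonadectomized (GDX) males, 6 intact females and 6 ovariectomized (OVX) females. Gonads were removed under isoflurane with buprenorphine, and tissue was taken 2 weeks later after perfusion with cold saline. Intact rats were matched in age, and no sham operation is described for them in the sources used here, so the surgery and the loss of the gonads cannot be told apart. Rats are named by group and number, intact males being 1, 2, 3, 5 and 6 and GDX males 1, 2, 4, 5 and 6, and values listed for these groups follow that order.

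Between 12371756 and 17571887 reads were counted per library. The channel genes took 28287 to 44924 of them. Their mean share was 0.272% for the 5 intact males (SD 0.0121%), 0.221% for the 5 GDX males (SD 0.0242%), 0.254% for the 6 intact females (SD 0.007%) and 0.243% for the 6 OVX females (SD 0.0191%). GDX males 1 and 2 stood apart from GDX males 4, 5 and 6, with shares of 0.245% and 0.247% against 0.204%, 0.193% and 0.216%. Between pairs of libraries, chi-square per degree of freedom was 5.35 for rats 1 and 2 and 7.65 to 10.6 among rats 4, 5 and 6. Across this split it was 11.6 to 23.5. Single pairs within the female groups reached 19.7 in intact and 20.8 in OVX females. The most abundant gene, AY172581.24, took 13.5% and 13.8% of reads in GDX males 1 and 2. Its share was 17.9%, 16.7% and 15.9% in GDX males 4, 5 and 6. The cause of the split was not tested. Libraries differed in the average length of their input fragments, which fell into a short and a long class. All GDX and OVX libraries were of the short class, as were intact males 2 and 5 and intact females 1 and 4, while the other intact rats had long class libraries. Gonadectomy was therefore partly aligned with fragment class, and each comparison with intact rats was also made within the short class.

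A voltage-gated sodium channel consists of a large pore-forming subunit that opens on depolarization and carries the upstroke of the action potential, and of small beta subunits that set its gating and its anchoring in the membrane. Calcium channels are built in the same way around a pore, with alpha2delta and beta subunits that bring it to the membrane. Calcium entry through them triggers transmitter release at terminals, shapes firing at the soma, and in motor neurons feeds the persistent inward currents that sustain firing, whereas the leak channel NALCN with UNC79 and UNC80 holds the resting potential at a level from which neurons can fire.

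After gonadectomy of males, at least 1 channel gene in each role was lower. Of 36 channel genes with enough reads to be tested, 14 passed the test used throughout, the quasi-likelihood test of edgeR with a threshold of 0.1 on the p adjusted by Benjamini and Hochberg over all genes, and all 14 were lower in GDX males, by 12.9% to 24.1%. Among all 14931 genes tested, 13.4% passed in either direction and 6.58% passed as lower. At an adjusted p under 0.01, 4 channel genes were lower, Unc80, Scn1a, Cacng2 and Cacna1b, against 0.737% of all genes. The log2 fold change was negative for 28 of the 36 channel genes and for 49.5% of all genes, with a median of −0.20 over the channel genes and 0.002 over all genes. In 10 channel genes every GDX male lay below every intact male, a pattern found for 3.79% of all genes tested. Each of the 9 roles held at least 1 gene that passed in this fit, which has no term for fragment class. With fragment class as a term, no sodium channel beta subunit, L-type pore, T-type pore or calcium channel beta subunit passed. These are levels of RNA in whole tissue, in which fewer cells of a type and less RNA per cell cannot be told apart.

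**Figure D1:**
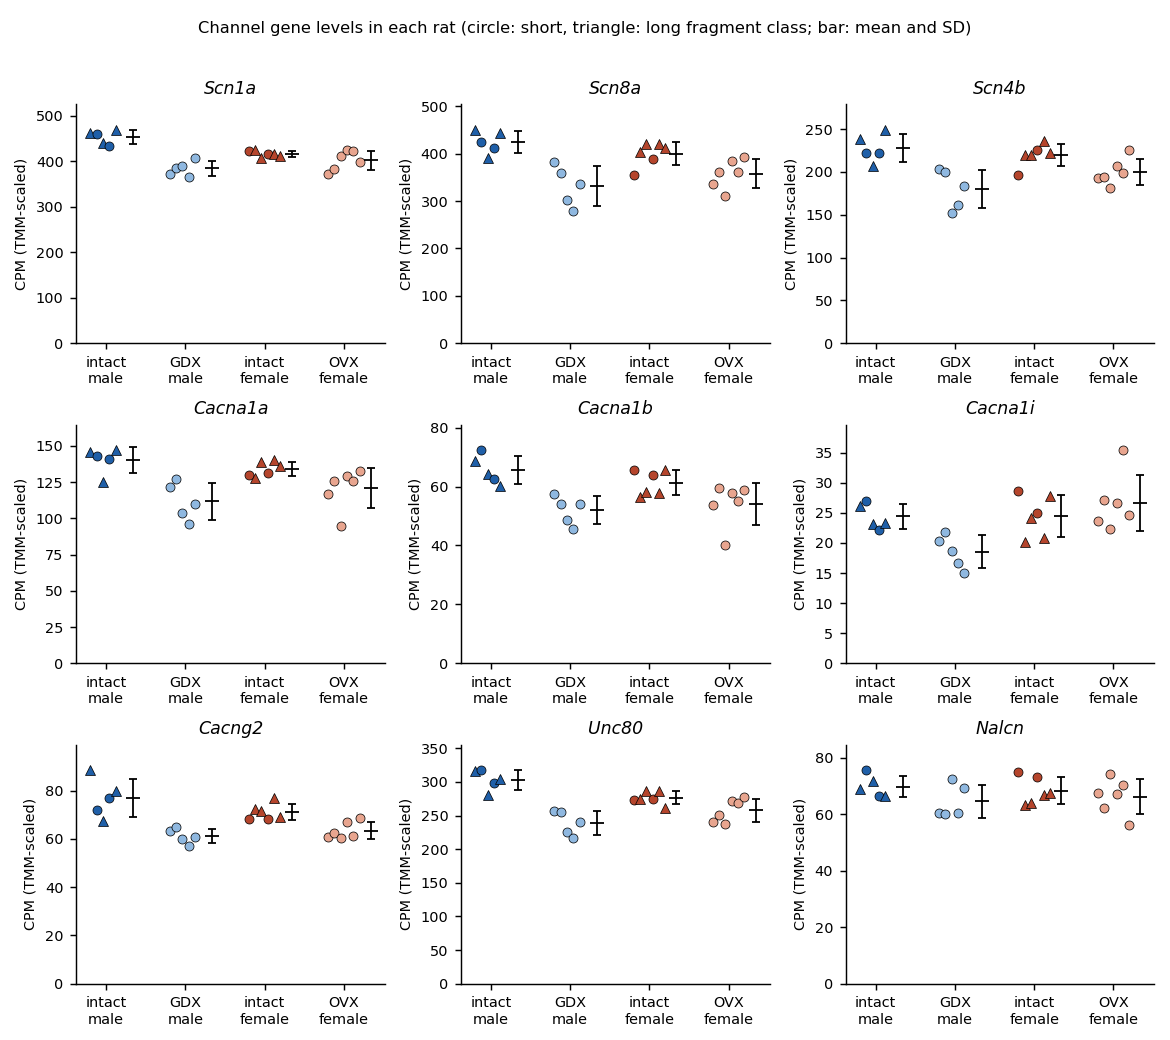
Levels of 9 channel genes in each rat, in CPM (read counts scaled to a common library size with TMM factors), plotted by group on axes that start at 0. Circles are short class and triangles long class libraries, and bars give the mean and SD. The GDX males lie below all intact males in Scn1a, Scn8a, Scn4b, Cacna1b, Cacna1i, Cacng2 and Unc80, and the groups overlap in Cacna1a and Nalcn.

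Among the pores of sodium channels, 3 of 8 tested genes fell. Scn1a (ENSRNOG00000053122) encodes the pore that dominates in fast-spiking interneurons and is also carried by motor neurons. Its level, in counts scaled to library size (CPM), was 463, 460, 440, 434 and 469 in intact males and 373, 386, 390, 365 and 408 in GDX males. The 5 GDX males lay below the 5 intact males without overlap. Scn1a fell by 15.2%, a log2 fold change of −0.24 ± 0.043 (SE) with an adjusted p of 0.0069. Scn8a (ENSRNOG00000005309) encodes the pore concentrated at axon initial segments and nodes of Ranvier, where spikes arise and are renewed. It stood at 450, 425, 391, 413 and 444 CPM in intact males and at 383, 359, 302, 279 and 336 CPM in GDX males. Again no GDX male reached the lowest intact male, and GDX males 4 and 5 were the lowest of all. Scn8a fell by 22%, with a log2 fold change of −0.36 ± 0.075 (SE) and an adjusted p of 0.0109.

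Scn2a (ENSRNOG00000005018), the pore of unmyelinated axons and of immature initial segments, gave the weakest of the 14 results. Its level was 63.6, 69, 62.6, 65.7 and 54.8 CPM in intact males and 55.4, 60.8, 58, 48 and 52.7 CPM in GDX males. The groups overlapped through intact male 6, and 2 of 5 GDX males lay below all intact males. The log2 fold change was −0.20 ± 0.07 (SE) with an adjusted p of 0.0944, which became 0.106 to 0.217 when intact male 1, 2, 3 or 5 or GDX male 1, 4, 5 or 6 was left out. Scn3a, a pore most abundant before birth, had an unadjusted p of 0.0448 and an adjusted p of 0.198. Scn4a of skeletal muscle, Scn7a, which senses sodium in glia, and Scn9a of sensory and autonomic neurons had log2 fold changes from 0.001 to 0.30, none past the test.

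Of the 4 sodium channel beta subunits, all tested, 1 fell. Scn4b (ENSRNOG00000026679) encodes a subunit that supports the resurgent current, a brief sodium current on repolarization that permits rapid repeated firing. Its level was 239, 222, 207, 222 and 249 CPM in intact males and 203, 200, 152, 162 and 184 CPM in GDX males. All GDX males lay below all intact males, the nearest being GDX male 1 and intact male 3. This fall of 20.9% had a log2 fold change of −0.34 ± 0.077 (SE) and an adjusted p of 0.0165. Scn2b and Scn3b had log2 fold changes of −0.066 and 0.024, short of the test.

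Promoter sequence was searched because these genes were lower together after removal of the source of androgens. Entries from RefSeq (GRCr8) covered 30 of the 43 channel genes and 11 of the 14 that fell, with no entry for Scn1a, Cacnb1 and Cacna1i. The letters AGAACA, the repeated element of androgen and glucocorticoid response elements, were looked for on both strands in the 250 bases before each start, and were present in 17.1% of 27457 promoters. They were found in 2 of the 11 genes that fell, Scn4b and Scn2a, and in 1 of the 19 other channel genes with an entry, Cacng5. The letters GGTCA, the repeated element of estrogen response elements, were present in 35.2% of promoters, in 2 of the 11 genes that fell, Cacna1b and Scn2a, and in 6 of the 19 others. The promoters of Scn4b (chr8:54343623-54343872, plus strand) and Scn2a (chr3:70710706-70710955, plus strand) are shown 5′ to 3′ as the genes that fell and hold AGAACA, with matches in capitals. In Scn4b the match begins 11 bases before the start, and in Scn2a the AGAACA match begins 43 bases and the GGTCA match, on the opposite strand and so written TGACC, 158 bases before it. No matches overlapped, and binding of a receptor at these letters was not tested.
Scn4b: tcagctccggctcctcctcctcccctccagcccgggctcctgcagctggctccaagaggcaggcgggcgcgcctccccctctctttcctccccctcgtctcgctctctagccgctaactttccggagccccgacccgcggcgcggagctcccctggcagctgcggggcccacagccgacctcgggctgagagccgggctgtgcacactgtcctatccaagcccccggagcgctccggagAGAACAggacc
Scn2a: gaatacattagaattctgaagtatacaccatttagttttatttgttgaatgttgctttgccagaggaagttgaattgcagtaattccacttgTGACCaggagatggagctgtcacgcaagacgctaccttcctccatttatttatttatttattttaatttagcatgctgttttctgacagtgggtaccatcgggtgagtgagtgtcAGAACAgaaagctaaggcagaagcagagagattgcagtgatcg

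Of the L-type pores, Cacna1c and Cacna1d had enough reads for the test, and Cacna1d fell. Cacna1d (ENSRNOG00000013147) encodes the L-type pore that opens at low voltage and carries much of the persistent calcium current of motor neurons. Its level was 55.7, 53.8, 54, 53.1 and 55.8 CPM in intact males and 50.4, 50.1, 43.2, 41.5 and 45.3 CPM in GDX males. The intact males were tightly spaced, and every GDX male lay below them. Cacna1d fell by 15.4%, with a log2 fold change of −0.24 ± 0.058 (SE) and an adjusted p of 0.0203. Cacna1c, the L-type pore of heart, smooth muscle and many neurons, was at 26.6 to 34.6 CPM in intact and 25.2 to 31.2 CPM in GDX males, with an adjusted p of 0.318.

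The pores that serve transmitter release gave 2 falls among 3 genes. Cacna1a (ENSRNOG00000052707), the P/Q-type pore that drives release at the adult neuromuscular junction and most central synapses, was at 146, 143, 125, 141 and 147 CPM in intact males and at 122, 127, 104, 96.1 and 110 CPM in GDX males. The groups overlapped at intact male 3, the lowest of its group, with GDX male 2 above it, and 4 of 5 GDX males lay below all intact males. Cacna1a fell by 20.3%, a log2 fold change of −0.33 ± 0.071 (SE) with an adjusted p of 0.0125. Cacna1b (ENSRNOG00000004560), the N-type pore that shares this task at many synapses, was at 68.6, 72.3, 64.4, 62.6 and 60.1 CPM in intact males and at 57.5, 54.1, 48.5, 45.6 and 54.1 CPM in GDX males. The groups of Cacna1b did not overlap. Its log2 fold change was −0.34 ± 0.068 (SE), a fall of 20.8%, with an adjusted p of 0.00973. Cacna1e, the R-type pore, ranged from 53.5 to 67.2 CPM in intact males and from 38 to 66.2 CPM in GDX males. This spread left Cacna1e at an unadjusted p of 0.036 and an adjusted p of 0.175.

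T-type pores open near the resting potential and support rebound and burst firing, and 1 of the 3 fell. Cacna1i (ENSRNOG00000060407), the T-type pore with the slowest gating, was at 26.2, 27, 23.2, 22.2 and 23.4 CPM in intact males and at 20.4, 21.8, 18.7, 16.6 and 15.1 CPM in GDX males. No GDX male reached the lowest intact male. Its fall of 24.1%, a log2 fold change of −0.40 ± 0.095 (SE) with an adjusted p of 0.0202, was the largest of the 14. Cacna1g had an unadjusted p of 0.0208 and an adjusted p of 0.129, at 27.2 to 37.8 CPM in intact and 24.8 to 34 CPM in GDX males. Cacna1h had an adjusted p of 0.4.

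The alpha2delta subunits, which raise the number of calcium channels at the membrane and bind gabapentin in some members, gave 2 falls among 3 tested genes. Cacna2d2 (ENSRNOG00000015835) was at 79, 84.6, 73.9, 78 and 69.3 CPM in intact males and at 74.9, 66.7, 59.3, 56.9 and 59.4 CPM in GDX males. GDX male 1 lay within the intact range of Cacna2d2 and the other 4 of 5 GDX males below it. For Cacna2d2 the fall was 17.6%, a log2 fold change of −0.28 ± 0.074 (SE) with an adjusted p of 0.0304. Cacna2d3 (ENSRNOG00000031287) was at 73.3, 69, 70.6, 68.5 and 65.2 CPM in intact males and at 56.3, 65.1, 58.8, 53.8 and 65.7 CPM in GDX males. The groups of Cacna2d3 overlapped at intact male 6, with GDX male 6 just above it and 4 of 5 GDX males below all intact males. Its log2 fold change was −0.21 ± 0.059 (SE), a fall of 13.5%, with an adjusted p of 0.0407, which became 0.105 without intact male 1 and likewise 0.105 without GDX male 5. Cacna2d1, the gabapentin-binding subunit of sensory neurons and motor neurons, had a log2 fold change of 0.13 ± 0.105 (SE) and did not pass.

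Among the 4 calcium channel beta subunits, which sit on the inner side of the pore and set its trafficking and gating, Cacnb1 fell. Cacnb1 (ENSRNOG00000004518), best known from the muscle channel and also present in neurons, was at 38.7, 41.1, 36.7, 37.3 and 43.4 CPM in intact males and at 33.6, 36.6, 30.4, 31 and 30.4 CPM in GDX males. The groups did not overlap, though GDX male 2 came close to intact male 3. The log2 fold change was −0.29 ± 0.067 (SE), a fall of 17.9%, with an adjusted p of 0.0187. Cacnb2 had a log2 fold change of −0.19 ± 0.099 (SE) and Cacnb4 of −0.10 ± 0.065 (SE), while that of Cacnb3 was 0.10 ± 0.178 (SE), and none of these passed.

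Of 6 gamma subunit genes tested, Cacng2 fell. Cacng2 (ENSRNOG00000006226) encodes stargazin, which acts mainly on AMPA receptors and carries them to synapses, so that it belongs to the family by descent more than by work on calcium channels. Its level was 88.3, 71.9, 67.2, 77 and 80 CPM in intact males and 63.1, 65, 60, 57 and 60.7 CPM in GDX males. Intact male 1 was the highest, and every GDX male lay below every intact male. Cacng2 fell by 20.5%, a log2 fold change of −0.33 ± 0.066 (SE) with an adjusted p of 0.00949. Cacng7, another AMPA receptor partner, had an unadjusted p of 0.0216 and an adjusted p of 0.132. Cacng3, Cacng4, Cacng5 and Cacng8 had log2 fold changes from −0.26 to 0.027 without passing.

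In the leak channel complex the scaffolds fell and the pore did not pass. Unc80 (ENSRNOG00000028362) encodes the large scaffold that links the channel to its regulators. It stood at 316, 317, 280, 298 and 304 CPM in intact males and at 257, 255, 225, 217 and 240 CPM in GDX males. The gap between the groups held for all rats. Unc80 fell by 21.3%, a log2 fold change of −0.35 ± 0.055 (SE), and had the smallest adjusted p of the channel genes, 0.00546. Unc79 (ENSRNOG00000008728), which binds UNC80 and stabilizes it, was at 65.8, 62.5, 62.9, 58.1 and 62 CPM in intact males and at 57.3, 54.9, 54.9, 48 and 53.2 CPM in GDX males. These groups also lay apart, with a log2 fold change of −0.22 ± 0.053 (SE), a fall of 13.8%, and an adjusted p of 0.0238. Nalcn (ENSRNOG00000004752), the pore itself, was at 68.8, 75.5, 71.6, 66.5 and 66.6 CPM in intact males and at 60.4, 60.2, 72.5, 60.4 and 69.4 CPM in GDX males. GDX males 4 and 6 lay within the intact range of Nalcn and the other 3 below it, and its log2 fold change of −0.11 ± 0.062 (SE) had an adjusted p of 0.286.

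**Figure D2:**
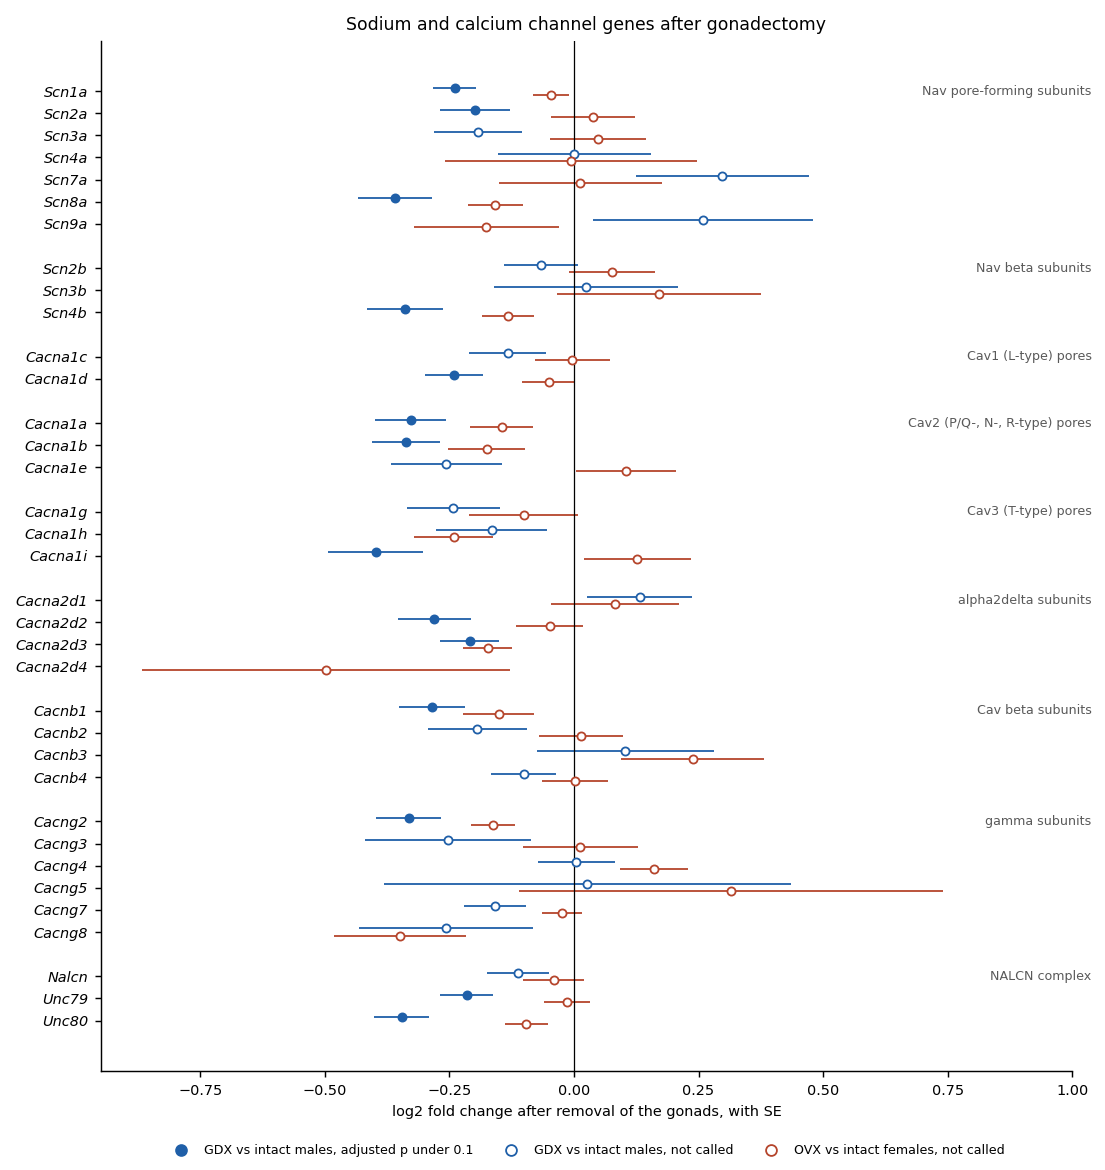
Log2 fold change with its SE for tested channel genes, grouped by role, in GDX against intact males (blue, filled where the adjusted p is under 0.1) and OVX against intact females (red, open because none passed). The fits have no term for fragment class. The 14 filled points all lie left of 0 and spread over all 9 roles, while the red points lie on both sides of 0.

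Of the 14 genes that fell, 12 passed in each of 10 refits that left out 1 male, Cacna2d3 and Scn2a being the exceptions described above. With the 7 short class libraries alone 3 channel genes passed as lower, Cacna1b, Cacng2 and Unc80, beside 1.56% of all genes. With class as a term 8 passed as lower, namely Cacna1a, Cacna1b, Cacna2d2, Cacng2, Scn1a, Scn2a, Scn8a and Unc80, beside 3.08% of all genes. With RIN as a term 11 passed as lower, beside 4.43% of all genes, Scn2a, Cacna2d2 and Cacna2d3 no longer doing so. The median log2 fold change over the channel genes was −0.25 in the short class, −0.26 with class as a term and −0.17 with RIN as a term.

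**Figure D3:**
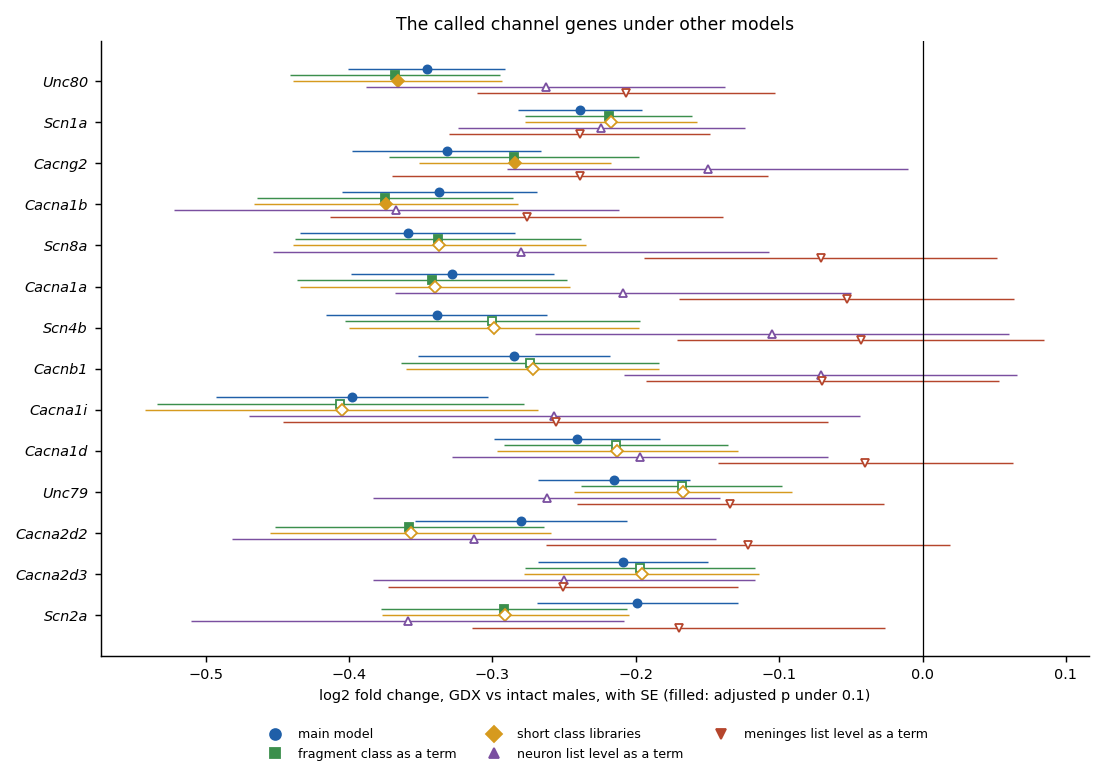
Log2 fold change in GDX against intact males, with its SE, of the 14 channel genes that fell, under 5 models: the groups alone, fragment class as a term, short class libraries alone, the neuron list level as a term and the meninges list level as a term. Filled symbols have an adjusted p under 0.1; every symbol lies left of 0, and none is filled with either list level as a term.

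Genes whose products hold these channels in place or regulate them were listed with the family, 24 in all, of which 22 were in the table and 20 were tested. In GDX males 9 of the 20 passed, 8 lower and 1 higher, beside 13.4% of all genes in either direction and 6.58% lower. The anchoring genes gave 5 falls among 7, the regulators of calcium channels 3 falls and 1 rise among 9, and the 4 FGF homologous factors, which bind the tail of sodium channels, none. Cntnap1 (ENSRNOG00000020277), which builds the junction beside the node of Ranvier, was at 122, 134 and 139 CPM (lowest, median and highest) in intact males and at 93.8, 107 and 116 CPM in GDX males. The groups did not overlap, and Cntnap1 had a log2 fold change of −0.33 ± 0.057 (SE) with an adjusted p of 0.00628. Rims1 (ENSRNOG00000011000), the scaffold that tethers calcium channels at the release site, was at 127, 134 and 141 CPM in intact and 108, 113 and 120 CPM in GDX males. Its groups lay apart as well, with a log2 fold change of −0.24 ± 0.045 (SE) and an adjusted p of 0.00773.

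Cabp1 (ENSRNOG00000001173), a calcium sensor that slows inactivation of L-type channels, was at 139 to 163 CPM in intact and 109 to 137 CPM in GDX males, with a log2 fold change of −0.30 ± 0.065 (SE) and an adjusted p of 0.0139. Ank2 (ENSRNOG00000011076), an ankyrin of the axonal membrane skeleton, was at 1690 to 1890 CPM in intact and 1480 to 1610 CPM in GDX males, with a log2 fold change of −0.19 ± 0.044 (SE) and an adjusted p of 0.018. In neither of these genes did the groups overlap. Sptbn4 (ENSRNOG00000055371), the spectrin that fixes sodium channels at initial segments and nodes, ranged from 188 to 221 CPM in intact males and from 151 to 195 CPM in GDX males, a log2 fold change of −0.29 ± 0.073 (SE) with an adjusted p of 0.0235. Nrcam (ENSRNOG00000004067), an adhesion molecule of the node, was at 279 to 301 CPM in intact and 259 to 277 CPM in GDX males, with a log2 fold change of −0.14 ± 0.039 (SE) and an adjusted p of 0.0425. Sptbn4 overlapped between the groups and Nrcam did not. Ank3, the ankyrin that recruits sodium channels, and Rimbp2, which joins calcium channels to release sites, also fell, with adjusted p of 0.0492 and 0.0451. Rem1, a GTPase that inhibits calcium channels, rose, with an adjusted p of 0.0877. The number of partner genes that passed was 5 without GDX male 5, 4 with class as a term and 3 of 22 tested within the short class. Genes that passed in all were 1202, 796 and 440 in those fits. With the level of either the neuron or the meninges marker list, described next, as a term, 0 partner genes passed, beside 0 genes and 1 gene in all.

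Markers of neurons were also lower in GDX males as a group. Of 15 neuronal marker genes, all tested, 7 fell in GDX males and 14 had a negative log2 fold change. The mean log2 CPM over the list was 7.76, 7.72, 7.66, 7.67 and 7.76 in intact males and 7.52, 7.58, 7.48, 7.61 and 7.52 in GDX males. Every GDX male lay below every intact male, and the difference was −0.17 (exact permutation test, two-sided, p = 0.00794, the smallest value 5 against 5 rats can give, and 0.0206 after adjustment over 13 marker lists). The GDX male highest on the list, rat 5, had the lowest share of channel gene reads, 0.193%. Summed over the list, the level was 15100, 13900, 15600, 14300 and 19300 CPM in intact males and 13500, 14000, 12300, 12800 and 14400 CPM in GDX males. Nefm, the neurofilament gene with the most reads in the list, ranged from 4920 to 8110 CPM in intact and from 4220 to 5510 CPM in GDX males, and no gene of the list was at 0. Markers of motor neurons, 12 genes led by Nefh, of which 2 fell, differed by −0.16 in males (exact p = 0.333), and their summed level was 4700 to 7450 CPM in intact and 4250 to 5070 CPM in GDX males, with Nefh at 4110 to 6390 CPM in intact and 3540 to 4270 CPM in GDX males. The short class intact males 2 and 5 were at 5.055 and 5.128 on the log2 scale, and the GDX males at 5.057 to 5.28. In intact rats all 12 motor neuron markers were higher in the long class, 10 with an unadjusted p under 0.05, by a median of 0.38.

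Markers of the meninges and of vessels moved the other way. The meninges and fibroblast list, 12 genes of which 10 were in the table and 9 were tested, rose in all 9. Its mean log2 CPM was 3, 2.76, 2.67, 2.28 and 1.89 in intact males and 3.37, 3.68, 4.2, 4.67 and 4.27 in GDX males, a difference of 1.52 without overlap (exact p = 0.00794, adjusted 0.0206). The summed level was 195, 133, 135, 89.9 and 68 CPM in intact males and 178, 296, 426, 560 and 455 CPM in GDX males, and no gene in the table was at 0 throughout. Col1a1, the collagen gene with the most reads in that list, was at 15.8 to 63.3 CPM in intact and 42.4 to 160 CPM in GDX males, a log2 fold change of 1.81 ± 0.352 (SE) with an adjusted p of 0.00848. The endothelial list, led by Flt1, rose in 8 of 8 tested genes, and its summed level was 112 to 169 CPM in intact and 189 to 255 CPM in GDX males, with Flt1 at 28.6 to 48 CPM in intact and 43.9 to 70.8 CPM in GDX males. Mural cell markers rose in 5 of 8 genes, with Myh11 at 29.7 to 45.3 CPM in intact and 46.6 to 53.4 CPM in GDX males, and astrocyte markers rose in 3 and fell in 1 of 9, with Gfap at 2850 to 3240 CPM in intact and 3620 to 4500 CPM in GDX males.

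Blood and nerve sheath markers also moved. The erythroid list, with 4 entries in the table because Hba-a2 has 2 Ensembl entries, and none of them at 0 throughout, rose in GDX males in 3 of 3 tested entries. Its mean log2 CPM differed by 1.34 (exact p = 0.0317, adjusted 0.0688), and the summed level was 8.83 to 21.4 CPM in intact and 17.3 to 91.2 CPM in GDX males, the entry of Hba-a2 with the most reads (ENSRNOG00000029886) being at 3.85 to 11.2 CPM in intact and 9.02 to 43.8 CPM in GDX males. In females the same list differed by 0.99 (exact p = 0.00433, adjusted 0.0281), with a summed level of 5.11 to 30.5 CPM in intact and 25.6 to 43.7 CPM in OVX females and 0 of 4 entries past the test in edgeR, all 4 having an unadjusted p under 0.05. Schwann cell markers, led by Pmp22 at 58.7 to 77.7 CPM in intact and 64.9 to 86 CPM in GDX males, rose in 2 of 5 tested genes in GDX males, with a list difference of 0.80 (exact p = 0.0952). Their part in the levels of the channel genes was not tested.

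With the level of the neuron list as a term, 0 of the 14 channel genes passed in edgeR and 7 of 36 had an unadjusted p under 0.05. In that model no gene of the whole table passed, and the median log2 fold change over the channel genes was −0.20. With the level of the meninges list as a term, 0 channel genes and 1 gene of the whole table passed. In that fit 3 channel genes had an unadjusted p under 0.05, and the median over the channel genes was −0.061. Over the 14 genes that fell, the median was −0.306 without these terms, −0.254 with the neuron term and −0.152 with the meninges term. Other tools were not run with these terms, and the share of all genes at an unadjusted p under 0.05 is not given for these fits. Both list levels separated GDX from intact males without overlap, so each term shares much of its variation with gonadectomy. Beyond these fits, the part of neurons, meninges, vessels and glia in the fall of the channel genes was not tested.

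**Figure D4:**
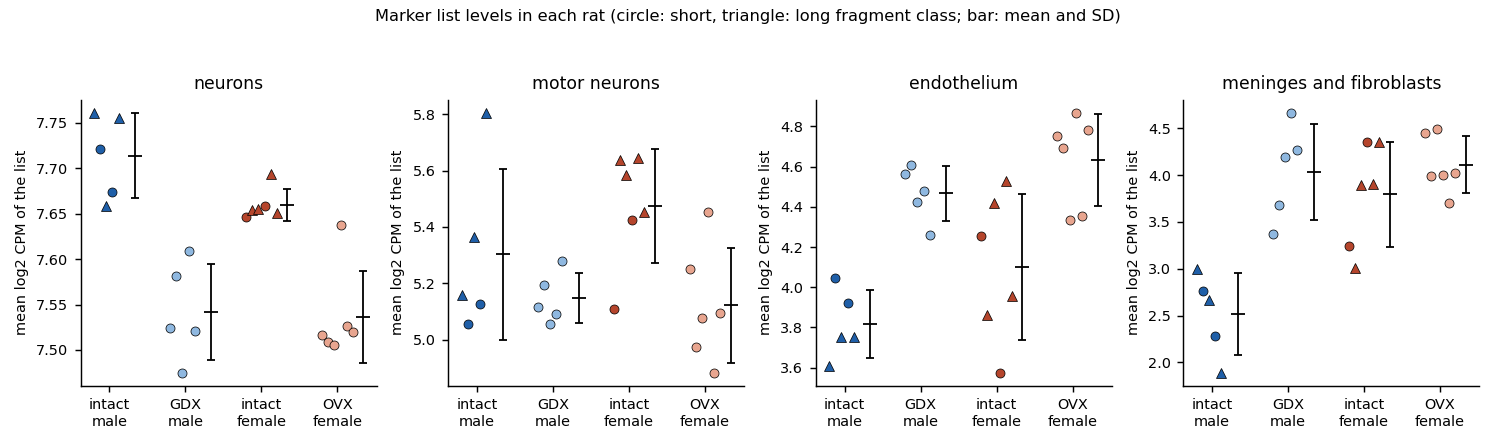
Mean log2 CPM of 4 marker lists in each rat, by group, with circles for short class and triangles for long class libraries and bars for the mean and SD; the axes do not start at 0. The neuron list is lower in all GDX males than in all intact males, and the meninges and endothelium lists are higher in all GDX males.

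In females, removal of the ovaries left no channel gene past the adjusted test. In edgeR 0 of 36 passed, beside 5 genes in all, which is 0.0335% of those tested. At an unadjusted p under 0.05 there were 12 channel genes, 11 lower in OVX females and Cacng4 higher, against 4.92% of all genes lower at that level. This count was 7 without intact female 3 or 5. The median log2 fold change over the channel genes ran from −0.065, without intact female 2, to −0.024 on leaving out 1 rat. DESeq2 called 2, Cacng2 and Cacna2d3, beside 174 genes in all, and edgeR's likelihood ratio test called 0 beside 100 in all, with 9 channel genes at an unadjusted p under 0.05. The median log2 fold change was −0.032 over the channel genes and 0.003 over all genes, and 22 of 36 were negative. With class as a term 2 channel genes had an unadjusted p under 0.05, while the median over the channel genes was −0.10. Within the short class 0 of 37 channel genes passed, beside 7 genes in all. There 2 channel genes had an unadjusted p under 0.05, and the median was −0.106.

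Cacng2, the stargazin gene, had the smallest p of the channel genes in females, at 68.1, 70.5 and 76.8 CPM (lowest, median and highest) in intact and 60.5, 61.7 and 68.7 CPM in OVX females. In 5 of 6 OVX females it was below all intact females. The log2 fold change was −0.16 ± 0.044 (SE), unadjusted p = 0.00209 and adjusted p = 0.233 in edgeR, and 0.0809 in DESeq2. Cacna2d3, an alpha2delta subunit, was at 65.4, 71.5 and 76.9 CPM in intact and 56.9, 63 and 69.2 CPM in OVX females, and 5 of 6 OVX females lay below all intact females. Its log2 fold change was −0.17 ± 0.049 (SE), with an adjusted p of 0.242 in edgeR and 0.0992 in DESeq2. Cacna1h, the T-type pore of sensory neurons and many central neurons, was at 18.7, 20.4 and 24.4 CPM in intact and 15.6, 18 and 19.4 CPM in OVX females. Here the ranges overlapped, and the log2 fold change was −0.24 ± 0.079 (SE) with an adjusted p of 0.301.

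Over the 14 genes that fell in males, the median log2 fold change in females was −0.114. Of these 14, 8 had an unadjusted p under 0.05 in females, beside 4.92% of all genes lower at that level. Scn1a was at 408, 416 and 425 CPM in intact and 372, 405 and 426 CPM in OVX females, with a log2 fold change of −0.046 ± 0.037 (SE). Unc80 was at 261, 275 and 287 CPM in intact and 238, 260 and 277 CPM in OVX females, with a log2 fold change of −0.10 ± 0.043 (SE) and an unadjusted p of 0.0401. Scn8a, at 356, 408 and 420 CPM in intact and 311, 361 and 392 CPM in OVX females, had a log2 fold change of −0.16 ± 0.055 (SE) and an unadjusted p of 0.0105. In each of these genes the ranges of the female groups overlapped. Scn4b was at 196, 221 and 236 CPM in intact and 181, 196 and 226 CPM in OVX females, a log2 fold change of −0.13 ± 0.052 (SE). Cacna1b was at 56.5, 61.1 and 65.7 CPM in intact and 40.2, 56.4 and 59.4 CPM in OVX females, the lowest being OVX female 3, with a log2 fold change of −0.17 ± 0.077 (SE). Cacna1i stood at 20.1, 24.6 and 28.6 CPM in intact and 22.4, 25.7 and 35.4 CPM in OVX females, a log2 fold change of 0.13 ± 0.107 (SE). Of the 14 genes that fell in males, 12 had a negative log2 fold change in females, Cacna1i and Scn2a having positive ones, and their adjusted p ran from 0.233 to 0.959.

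Nalcn, Unc79 and the remaining subunits showed no call in females. Nalcn was at 63.2, 67.2 and 74.9 CPM in intact and 56.3, 67.3 and 74.2 CPM in OVX females, and Unc79 at 54.7, 57.2 and 60.7 CPM in intact and 51.8, 56.6 and 60.9 CPM in OVX females. The ranges overlapped in both, with 2 of 6 OVX females below all intact females for Nalcn and 3 of 6 below and 1 above for Unc79. The 20 tested partners gave 0 calls in edgeR and 0 in DESeq2, with 4 lower at an unadjusted p under 0.05, Rimbp2, Rem2, Cntnap1 and Ank2. The neuron list was lower in OVX than in intact females by −0.12 on the mean log2 CPM scale (exact p = 0.00216, the smallest 6 against 6 rats can give, and 0.0281 adjusted over 13 lists), at 7.65 to 7.69 in intact and 7.51 to 7.64 in OVX females. Its summed level was 13600 to 17300 CPM in intact and 12200 to 15500 CPM in OVX females. The motor neuron list differed by −0.35 (exact p = 0.0173, adjusted 0.0563) across all libraries, in which gonadectomy was partly aligned with fragment class, and the cause was not tested. The meninges list differed by 0.32 (exact p = 0.255), with a summed level of 139 to 455 CPM in intact and 275 to 479 CPM in OVX females. The endothelial list differed by 0.53 (exact p = 0.0152, adjusted 0.0563). The count of channel genes with an unadjusted p under 0.05 in females, 12 without such terms, was 0 with the level of the neuron list as a term and 7 with that of the meninges list, with medians of −0.034 and −0.032. The neuron list separated OVX from intact females without overlap, so this term too shares much of its variation with gonadectomy. Beyond these fits, the part of the lists in the levels of the channel genes was not tested.

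The difference between the sexes in the effect of gonadectomy was tested directly, as the interaction over all 22 rats. In edgeR 0 of 37 channel genes passed, beside 18 genes in all, or 0.116% of those tested. At an unadjusted p under 0.05 there were 9 channel genes, all negative, meaning lower after gonadectomy in males relative to females, against 5.71% of all genes in that direction. When 1 rat was left out this count ran from 4, without GDX male 4 or 5, to 14, without OVX female 3. DESeq2 called 3, Cacna1i, Scn1a and Unc80, beside 243 genes in all, while edgeR's likelihood ratio test called 0 beside 184 in all, with 7 channel genes at an unadjusted p under 0.05. The interaction was negative for 30 of the 37, with a median of −0.15 over the channel genes and 0.002 over all genes. With fragment class as a term 0 passed, 11 had an unadjusted p under 0.05 and the median was −0.136. Within the short class 0 of 38 channel genes passed, 4 had an unadjusted p under 0.05 and the median was −0.179. Genes that passed in all were 6 and 5 in these fits. Meninges markers had a positive interaction with an unadjusted p under 0.05 in 9 of 10 genes, and Schwann cell markers in 5 of 6, with medians of 1.31 and 0.98. Neuron markers had a negative interaction at that level in 5 of 15 genes, with a median of −0.108 and 5 of the 15 positive. With the level of the meninges list as a term 2 channel genes had an unadjusted p under 0.05 and the median was −0.099, and with the neuron list 7 had and the median was −0.15. The share of all genes at that level is not given for the fits with list or class terms or within the short class. Scn1a had an interaction of −0.19 ± 0.053 (SE), Unc80 of −0.25 ± 0.07 (SE), each with an adjusted p of 0.164. Cacna1i, lower in GDX males and not in OVX females, had an interaction of −0.52 ± 0.157 (SE) with an adjusted p of 0.175. Without GDX male 1, Unc80 passed with an adjusted p of 0.0787. By the test used throughout, no single channel gene was shown to respond differently in the sexes.

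The sexes were next compared without surgery. Of 36 channel genes, 2 passed, Scn1a and Unc80, both higher in intact males, beside 4.01% of all genes in either direction and 1.45% higher in males. The intact males are the same 5 rats that served in the comparison with GDX males. Scn1a was at 434 to 469 CPM in intact males and 408 to 425 CPM in intact females, without overlap, a log2 fold change of 0.13 ± 0.032 (SE) with an adjusted p of 0.0555. Unc80 was at 280 to 317 CPM in intact males and 261 to 287 CPM in intact females, with 4 of 5 males above all females. Its log2 fold change was 0.14 ± 0.04 (SE) with an adjusted p of 0.0884. The groups lay apart with males higher for Scn1a and Cacna1d, against 1.19% of all genes. Cacna1d, the low-voltage L-type pore, was at 53.1 to 55.8 CPM in males and 45.9 to 52.6 CPM in females, a log2 fold change of 0.15 ± 0.046 (SE) with an adjusted p of 0.102. Unc79 had a log2 fold change of 0.13 ± 0.041 (SE) and an adjusted p of 0.128. Scn7a, a sodium channel of glia, had a log2 fold change of −0.41 ± 0.188 (SE) and an adjusted p of 0.305.

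These calls rested on most rats being present. Scn1a had an adjusted p of 0.139, 0.117 and 0.13 without intact male 1, 2 or 6, and of 0.115, 0.104 and 0.118 without intact female 3, 5 or 6. Unc80 passed when intact male 3 was left out, at 0.0368, and reached 0.104 to 0.213 when any other rat was. In edgeR's likelihood ratio test neither passed, with adjusted p of 0.141 for Scn1a and 0.149 for Unc80. Within the short class, with 2 rats of each sex, neither passed, Scn1a having a log2 fold change of 0.095 ± 0.063 (SE) and Unc80 of 0.17 ± 0.062 (SE). The meninges list was lower in intact males by 1.27 (exact p = 0.00433, adjusted 0.0563), with 7 of 9 genes passing. The Schwann cell list was lower by 1.24 (exact p = 0.00866, adjusted 0.0563), with 3 of 5 genes passing and a summed level of 67.5 to 114 CPM in intact males and 111 to 183 CPM in intact females. The neuron list was higher in intact males by 0.054 (exact p = 0.0281, adjusted 0.122). The median over the channel genes was 0.039. With the level of the neuron list as a term neither Scn1a nor Unc80 passed and the median was 0.002, beside 79 genes in all that passed. With the level of the meninges list as a term neither passed and the median was 0.09, beside 21 genes in all. Beyond these fits, the part of the lists in the calls was not tested.

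GDX males and OVX females, all of the short class, were compared with no difference in fragment length. In edgeR 0 of 36 channel genes passed, beside 35 genes in all, or 0.232% of those tested, and 5 channel genes had an unadjusted p under 0.05, against 9.37% of all genes. This last count for channel genes was 5 with the neuron list level as a term and 17 with the meninges list level. With the meninges term 251 genes in all passed. On leaving out 1 rat the count ran from 2 to 10 and the median log2 fold change from −0.136 to −0.045. DESeq2 and edgeR's likelihood ratio test each called 1, Cacna1i, beside 130 and 91 genes in all. The log2 fold change was negative for 31 of 36 channel genes and for 50.1% of all genes, with a median of −0.093. Cacna1i was the gene whose groups lay apart, a pattern that 0.603% of all genes showed with lower values in males. This T-type pore was at 15.1 to 21.8 CPM in GDX males and 22.4 to 35.4 CPM in OVX females, the highest being OVX female 5. Its log2 fold change was −0.52 ± 0.117 (SE), with an adjusted p of 0.14 in edgeR, 0.0062 in DESeq2 and 0.0108 in the likelihood ratio test. In edgeR it passed without GDX male 2, at 0.0988, or without OVX female 3, at 0.0941. The other 4 genes with an unadjusted p under 0.05 were Scn2b, Cacnb3, Cacnb4 and Cacng3, with log2 fold changes from −0.33 to −0.15.

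Intact rats also show how the channel genes vary with fragment length in the absence of surgery. In a fit with sex as a term, 0 of 37 channel genes differed between the long and the short class in edgeR, beside 1 gene in all, or 0.0066% of those tested. At an unadjusted p under 0.05 there were 10 channel genes, 9 lower and 1 higher in the long class, against 7.72% of all genes. That count was 3 without intact female 1 and 12 without intact male 3. The median over the channel genes was −0.062, and ran from −0.098 to −0.034 on leaving out 1 rat. DESeq2 called 1, Scn2a, beside 58 genes in all, and edgeR's likelihood ratio test called 0 beside 53 in all, with 9 channel genes at an unadjusted p under 0.05. Scn2a had a log2 difference of −0.24 ± 0.06 (SE), with an adjusted p of 0.338 in edgeR. Cacna2d1 had one of −0.27 ± 0.087 (SE), Cacna1e of −0.23 ± 0.076 (SE), and Scn9a, the gene higher in the long class, of 0.50 ± 0.156 (SE). Scn1a, Unc80 and Cacna1d had differences of 0.008, −0.008 and 0.012, and Scn8a, Cacna1b and Cacna1i of 0.095, −0.096 and −0.12, none past the test. Of the 14 genes that fell in males, 2 had an unadjusted p under 0.05 in edgeR, Scn2a and Cacna2d2. The difference of Cacna2d2 was −0.135 ± 0.051 (SE).

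Some channel genes of other tissues were near the floor of detection. Scn10a and Scn11a, the pores of nociceptive sensory neurons, had 0 to 9 reads in any library and were not tested. Sensory neuron markers were likewise low, with Avil, the gene with the most reads among the 7, at a mean of 3.7 CPM, Mrgprd and Prdm12 under 0.1 CPM and 1 gene at 0 in all libraries. Cacna1f of the retina had 0 to 7 reads and Cacng6 of skeletal muscle 0 to 10. Cacna1s and Cacng1, parts of the skeletal muscle channel, had 0 to 31 and 0 to 8 reads, with no reads of Cacng1 in 15 of 22 libraries. Cacna2d4 had 2 to 21 reads and was tested in females but not in males. In all, 7 channel genes were not tested in males, and 35 were tested in both sexes.

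In the RefSeq gene order (GRCr8) all 43 genes were matched by symbol, and 9 pairs of them are direct neighbors. Scn1a, Scn9a and Scn7a lie in a row, and of these Scn1a fell in GDX males while Scn9a and Scn7a had log2 fold changes of 0.26 and 0.30 that did not pass. Scn2a, which fell, lies next to Scn3a, and Scn4b, which fell, next to Scn2b. Of the gamma subunit runs Cacng6, Cacng8 and Cacng7 and Cacng1, Cacng4 and Cacng5, no gene passed in males.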

How the data were processed

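Reads were aligned and assigned to genes by the authors, and their deposited table of whole read counts per gene was used as given. The paper names Trimmomatic, Hisat2, featureCounts and Rnor_6.0 with a stranded SMARTer total RNA kit, while the sample labels name a TruSeq kit and TopHat2 2.0.13, Subread, edgeR and FastQC, so the aligner and kit are uncertain. Strand settings and the handling of reads shared by paralogs are not given in the sources used here, which matters for channel genes of similar sequence. The headings of all 5 intact male columns misspell intact, so this whole group rests on reading them as intact males. RIN came from the paper's table of RNA quality, and fragment class from the fragment sizes in its table of mapping results.

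Counts were filtered with filterByExpr, scaled with TMM factors and tested with the quasi-likelihood method of edgeR 4.0.16 in R 4.3.3, each comparison on its own rats. The interaction was fitted over all 22 rats, and the fit on fragment class over the intact rats with sex as a term. CPM values use TMM-scaled library sizes, and log2 CPM values add a prior count of 2. Marker lists were scored as the mean log2 CPM of their genes and compared by exact permutation of rats, adjusted over the lists in each comparison. Where a count at an unadjusted p under 0.05 has the share of all genes beside it, that share is from the first fit. Such shares are not given for the alternatives.

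The members and lists were chosen with earlier results of these data known. Values are given for channel genes that passed in males, females, the interaction or the intact sexes, for the NALCN complex, for those with an unadjusted p under 0.01 in females, for the 6 partner genes with the smallest adjusted p, and for the most abundant gene of each marker list described. Alternatives were DESeq2 1.42.0, the likelihood ratio test of edgeR, RLE factors, no filter, a filter at 1 CPM, removal of the most abundant gene, all 22 rats in 1 fit, RIN or fragment class as a term, the short class alone, list levels as terms, the rat number as a block, another prior count for list levels, and leaving out each rat. The procedure was tested on a single simulated draw per comparison, with 200 changed genes in each. The share of false calls was 14.5% in the male comparison, above the threshold, 8.9% in the female comparison and 8.33% in the interaction. A draw with as many changed genes as passed in males was not made. Of simulated log2 changes of 0.3, 32.9% were called in males, 39.7% in females and 18.9% in the interaction. For changes of 0.5 these shares were 70.2%, 60.9% and 52.6%. Promoter sequences and gene order came from RefSeq (GRCr8), a later build than that of the counts, and were joined by symbol. Some channel genes that enter the counts are not reported here by name. Plasma hormones and protein levels were not analysed here.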

Additional observations from a re-analysis of the deposited data

Results flagged for a closer look

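Each group of 5 or 6 rats was searched for 1 rat far from the others, by Dixon's test at 95%, in the channel genes tested in males and in the marker lists. Of 196 groups searched, 11 were marked, and chance marks about 1 in 20, or 5%. Cacna1c was 25.2 CPM in intact female 2, with 30.3 to 31.7 CPM in the other intact females. Cacna1a was 125 CPM in intact male 3, with 141 to 147 CPM in the other intact males. Cacna1b was 40.2 CPM in OVX female 3 against 53.6 to 59.4 CPM, Cacna1i 35.4 CPM in OVX female 5 against 22.4 to 27.2 CPM, and Cacnb2 15.3 CPM in OVX female 2 against 12.9 to 13.7 CPM. On the mean log2 CPM scale, the neuron list was 7.694 in intact female 5 (others 7.646 to 7.658) and 7.638 in OVX female 4 (others 7.506 to 7.526). The astrocyte list was 8.157 in intact female 1 (others 8.324 to 8.363) and the microglia list 4.004 in intact female 5 (others 4.252 to 4.386). The skeletal muscle list was 3.524 in intact male 2 (others −0.094 to 0.611), and the erythroid list −0.089 in intact female 2 (others 1.569 to 2.303). The cause of these single values was not tested, and no rat was left out for them in the main comparisons.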

How the results depend on the processing

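Of the channel genes that fell in males, all had a negative log2 fold change in each of 336 fitted values, the first fit included. When 1 rat was left out, 12 to 14 of the 14 calls were kept. The count of channel genes called then ran from 12 to 16, the 16 without GDX male 2 including Cacna1e and Cacna1g. This count was 11 with RIN as a term, 8 with fragment class as a term (3.08% of all genes lower) and 3 in the short class alone (1.56% of all genes lower). It was 0 with the neuron list level and 0 with the meninges list level as a term. Over all tested channel genes the median log2 fold change was −0.061 with the meninges term. Over the 14 that fell it was −0.306 in the first fit, −0.254 with the neuron term and −0.152 with the meninges term. Partner genes called in males were 4 with the class term, 3 in the short class and 6 with RIN as a term. Genes called in all were 796, 440 and 1262 in those fits. With either list term 0 partner genes were called, and 5 to 9 when 1 rat was left out, the 5 without GDX male 5. In females 0 channel genes became 2 with DESeq2 and 12 at an unadjusted p under 0.05. For the interaction the count was 3 with DESeq2, 9 unadjusted and 0 to 1 on leaving out 1 rat, and partner genes were 1 with DESeq2 and 0 to 1 on leaving out 1 rat. Between GDX males and OVX females 4 of 20 tested partner genes were called with the meninges term, beside 251 genes in all, 181 of them lower. Between intact males and females, 2 calls became 0 with the likelihood ratio test, in the short class (median 0.083, 34 genes called in all), with the meninges term (median 0.09, 21 in all) and with the neuron term (median 0.002, 79 in all), 1 without a filter, with all 22 rats and with the class term, 3 with DESeq2, the filter at 1 CPM or RIN as a term, 5 unadjusted and 0 to 2 on leaving out 1 rat. Between GDX males and OVX females, 0 calls became 1 with DESeq2, the likelihood ratio test, no filter, all 22 rats or the meninges term. Genes called in all were 130, 91, 48, 61 and 251 in those fits, in that order, against 35 in the first fit. For the same comparison the count was 5 unadjusted, and 0 to 1 on leaving out 1 rat. For fragment class, 0 became 1 with DESeq2 (58 genes called in all), 3 without a filter (210 in all) and 10 unadjusted. The short class alone has fewer libraries, and otherwise the cause was not tested. Among log2 fold changes of single channel genes, 2257 kept their side of the threshold, 21 newly passed, 90 no longer passed and none changed direction past it.

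With rat number as a replicate block, 12 channel genes were called in males, all lower, beside 4.36% of all genes, and 0 between the intact sexes, beside 255 genes in all. After removal of group means, rats with the same number correlated at −0.114 to 0.063, with 0 pairs over 0.1 and 0 rats closest to their own number, so the numbers were not treated as a pairing.

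Depth limits the genes below the filter. With 5 or 6 rats per group, an exact test cannot give a p under 0.00794 in males or 0.00216 in females, fragment class is only partly separable from gonadectomy, and surgery is not separable from the loss of gonads.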

Other observations

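Skeletal muscle markers stood out in a few libraries, with a summed level of 161 CPM in intact male 2, 138 CPM in OVX female 1 and 211 CPM in OVX female 4. In OVX female 4 the muscle channel genes Cacna1s and Cacng1 had their highest counts, 31 and 8 reads. Scn10a had 77 reads over all 22 libraries and Scn11a 43, while the sensory neuron markers summed to 9.64 to 14.8 CPM in intact males and 9.46 to 10.9 CPM in GDX males.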
